A study of Mus musculus with 8 samples.

Results

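The 33 genes described here encode the enzymes, sensors and regulators with which a cell makes cholesterol and fatty acids. They were taken by symbol from a table of 24108 named genes, without regard to their values: 23 belong to the sterol pathway and its control and 10 to the making, elongation and desaturation of fatty acids. All 33 were among the 13989 genes with enough counts to be tested. RNA had been sequenced from CD4 T cells of mouse mesenteric lymph nodes, in 4 populations with 2 libraries each. Every population came from mice of the same genotype, with the Foxp3 alleles DTR-GFP and Thy1.1, 1 CD4CreER allele and 1 R26 lsl-tdTomato allele. DTR is the receptor for diphtheria toxin, which mouse cells otherwise lack in a form the toxin can use, and the labels name it with GFP only. Foxp3 is the factor that defines regulatory T (Treg) cells, so GFP or Thy1.1 marks a cell that expresses it.

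The mice had been bred and weaned on AVNM, a term the labels do not spell out, with an amino acid-defined diet. Tamoxifen, which switches on the Cre, then marked CD4 T cells with the red protein tdTomato, and diphtheria toxin was given over the 3 weeks or so allowed for marked thymocytes to mature. According to the design text the cells marked in this way were extrathymic and lacked Foxp3. The labels name DTR with GFP only, so they do not show that Thy1.1 cells already expressing Foxp3 at marking were removed. Chow and a fecal microbiota from SPF (specific pathogen free) mice followed, and cells were sorted 12 days after colonization. The populations were tdTomato-negative Thy1.1, tdTomato-positive Thy1.1, tdTomato-negative GFP and tdTomato-positive GFP cells. The ages of the mice, and whether a population's 2 libraries represent different mice, are not stated, and the p-values reflect only how far such paired libraries differ, perhaps for technical reasons. The Thy1.1 libraries are numbered 1 and 2 and the GFP libraries 3 and 4, and the labels do not say whether both reporters were sorted from the same animals. Differences between reporters and differences between sources, sorts or earlier cell histories therefore cannot be told apart.

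Cholesterol is built from acetyl-CoA through mevalonate and isoprenoid units to squalene, which is closed to lanosterol and then trimmed to cholesterol. When the sterol content of the endoplasmic reticulum is low, SCAP escorts the SREBP factors to the Golgi, where they are cut and released to bind promoters of these enzymes; when it is high, INSIG proteins hold SCAP back. SREBP-2, from Srebf2, acts mainly on sterol genes and the main form of SREBP-1, from Srebf1, on fatty acid genes, and dividing lymphocytes draw on both pathways for new membrane.

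The libraries held 38085686 to 47908198 counts. Values are given as CPM, counts scaled to the same named-gene total in every library. A count of 0 allows up to 3 counts, or 0.0626 to 0.0788 CPM by library (counting error only). Foxp3 lay between 124 and 199 CPM and Cd3e between 954 and 1352 CPM in all 8 libraries, and 8 Treg and CD4 T cell markers summed to 5518 to 6633 CPM. Within that list, Ctla4 and Cd4 rose and Foxp3 and Ikzf2 fell in GFP against Thy1.1 among tdTomato-positive cells, Ctla4 from 438 and 472 to 1243 and 1048 CPM and Ikzf2 from 743 and 867 to 180 and 125 CPM, and their part in the other results was not tested. The 7 adipocyte and hepatocyte markers, from cells that make much lipid, summed to at most 1.35 CPM, with Lep, Apoa1 and Ttr at 0 counts in every library. Library 3 of tdTomato-negative GFP cells stood apart in 8 myeloid and dendritic markers, which summed to 111 CPM there, 13.1 CPM in library 4 of that population, 4.52 to 8.09 CPM with Thy1.1 and 8.72 and 38.1 CPM in GFP cells with tdTomato, where Csf1r and Siglech were at 0. The 4 erythroid markers summed to 5.25 and 46.7 CPM in GFP cells with tdTomato and to at most 3.76 CPM elsewhere. B cell markers (6 genes) summed to 37.3 to 43.6 CPM in the 4 Thy1.1 and 8.43 to 22.8 CPM in the 4 GFP libraries, plasma cell markers (4 genes) to at most 2.13 CPM and CD8 T and NK cell markers (5 genes) to 12.5 to 39.0 CPM. The 6 stromal and epithelial markers summed to 153 to 312 CPM, of which Pecam1, which T cells can also express, made up 96.5 to 301 CPM.

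Promoters of the sterol genes open the account because SREBP factors act there. RefSeq (GRCm38.p6) promoters of 300 bases, from 250 before to 50 after the start, were on hand for 26 of the 33 genes. The 250 bases before the start of Hmgcs1, at chr13:119690101-119690350 on the plus strand, are shown because this was the only promoter of the 26 to hold the sterol regulatory element-like motif TCACNCCAC on either strand. Those of Ebp are at chrX:8193513-8193762 on the minus strand. Ebp is shown because it was called in GFP against Thy1.1 among tdTomato-positive cells and its window lies outside the annotated gene. It also holds more than 1 CCAAT, the box bound by the SREBP partner NF-Y, and was picked after its matches were seen. Msmo1 and Idi1 met the same terms except that their windows overlap the annotated gene, so they are not shown. Capitals mark CCAAT, read as ATTGG on the other strand, and the sterol regulatory element-like match.
Hmgcs1: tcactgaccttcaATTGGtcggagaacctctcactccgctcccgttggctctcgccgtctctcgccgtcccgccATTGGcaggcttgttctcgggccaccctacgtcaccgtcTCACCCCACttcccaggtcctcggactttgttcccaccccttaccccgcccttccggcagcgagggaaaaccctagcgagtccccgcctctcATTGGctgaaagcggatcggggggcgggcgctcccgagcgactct
Ebp: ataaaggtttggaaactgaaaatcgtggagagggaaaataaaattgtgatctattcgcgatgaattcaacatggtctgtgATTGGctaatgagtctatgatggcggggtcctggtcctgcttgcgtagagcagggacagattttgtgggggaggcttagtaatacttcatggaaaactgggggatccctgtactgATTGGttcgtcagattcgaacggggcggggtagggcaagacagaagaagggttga
In the 250 bases shown, Hmgcs1 thus had 3 CCAAT matches and Ebp 2, and no match overlapped another. A further CCAAT match of Hmgcs1 began at base 11 after the start. Over the whole 300 bases, CCAAT was held by 21 of the 26 genes (80.8%), against 42.8% of the 10766 tested genes with a promoter. TCACNCCAC was held by 1 of 26 (3.85%), against 1.37%, and the stricter TCACCCCAC by the same 1, against 0.669%. The E-box CACGTG was held by 5 of 26 (19.2%), against 11.4%. These matches describe letters in the windows searched.

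Per kilobase of exon, the highest median levels over the 8 libraries were 64.4 CPM per kb for Acly, which makes cytosolic acetyl-CoA from citrate, and 52.5 CPM per kb for Srebf2. Mvd, at 30.7 CPM per kb, and Ebp, at 29.4 CPM per kb, followed. At the low end stood Lss with 1.84 and Acaca with 1.33 CPM per kb. Below them were 3 other fatty acid genes, Scd1 with 0.0859 CPM per kb, Me1 with 0.0142 CPM per kb and Fads2, whose median was below 1 count. Exon length took in every annotated exon of a gene, 10787 bases for Lss and 17074 bases for Acaca. Before division by length the medians of Lss and Acaca were 19.8 and 22.7 CPM.

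**Figure D1:**
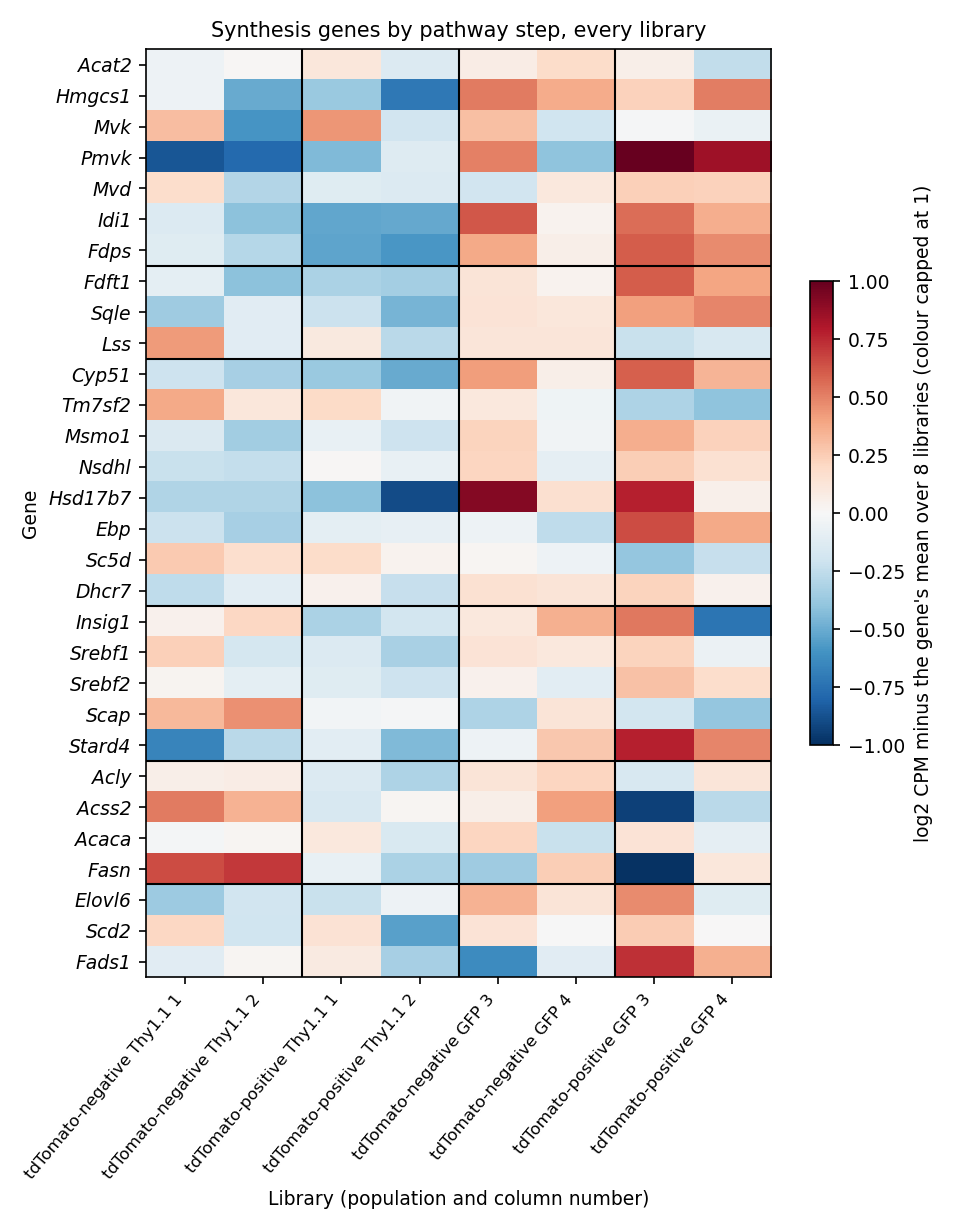
Log2 CPM of each gene in each of the 8 libraries relative to that gene's mean, by pathway step, with colours capped at 1 log2 unit either way; the 30 genes with a median of at least 5 CPM are drawn. Pmvk, Mvd, Fdps, Fdft1 and Sqle are highest in both tdTomato-positive GFP libraries, while Fasn is highest in both tdTomato-negative Thy1.1 libraries.

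The first comparison set GFP against Thy1.1 among tdTomato-positive cells, in a study that asked what peripherally induced Treg cells, those that arise outside the thymus, owe to Foxp3. Both populations were marked as expressing Foxp3, so this comparison cannot by itself answer that question. Of the 33 genes, 11 rose and 0 fell in GFP cells (edgeR quasi-likelihood test, Benjamini-Hochberg adjusted p under 0.05 over all tested genes). Over all genes 14.8% were called, 8.01% rising and 6.82% falling. All 11 were among the 23 sterol genes, and 0 of the 10 fatty acid genes were called. With 10 genes and 14.8% of all genes called, 0 calls do not set the fatty acid genes apart from all genes. Scd1, Me1 and Fads2 had low counts in most libraries and, once this was seen, were left out of the counts and medians that use no adjusted p, which are over the 30 genes with a median above 5 CPM. Of these, 22 had a log2 fold change above 0, against 49.5% of all genes, and their median was 0.39 against -0.01. Both GFP libraries lay above both Thy1.1 libraries for 17 of the 30 (26.0% of all genes) and below them for 4 (33.1% of all genes). At an unadjusted p under 0.05 there were 16 above 0 (15.5% of all genes) and 1 below (14.4%). The latter was Sc5d, which was also the 1 gene that DESeq2 called lower, where it called 11.4% of all genes lower. In bulk RNA like this, fewer cells with a transcript and less of it per cell cannot be told apart.

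In the mevalonate steps, 4 of 7 rose, with a median log2 fold change of 0.97 over the 7. Fdps makes farnesyl diphosphate, the last product shared by sterols and other isoprenoids (GRCm38 chr3:89093588-89101959, minus strand). In tdTomato-positive cells it stood at 37.7 and 36.2 CPM with Thy1.1 and at 82.5 and 75.2 CPM with GFP. In tdTomato-negative cells it was 49.9 and 44.6 against 70.7 and 56.4 CPM. Neither pair of groups overlapped, and the difference in tdTomato-positive cells was a log2 fold change of 1.16 ± 0.15 (SE) and an edgeR adjusted p of 0.00332. Pmvk phosphorylates phosphomevalonate and had the steepest fold of the 11. It went from 11.5 and 14.3 CPM to 37.1 and 28.1 CPM, a log2 fold change of 1.40 ± 0.32 (edgeR adjusted p = 0.0259). In tdTomato-negative cells it was 8.66 and 9.13 CPM with Thy1.1 and 22.2 and 11.8 CPM with GFP, so the GFP libraries differed from each other more there than the Thy1.1 libraries did.

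Idi1, which interconverts both isoprenoid building units, went from 14.8 and 14.9 CPM to 31.2 and 27.4 CPM (log2 fold change 1.04 ± 0.24, edgeR adjusted p = 0.0255). In tdTomato-negative cells it was 19.3 and 16.0 against 32.8 and 21.7 CPM. Neither pair of groups overlapped, and the 4 GFP libraries exceeded all 4 Thy1.1 libraries. Hmgcs1 joins acetyl-CoA units into the precursor of mevalonate. Its levels were 48.4 and 38.1 CPM with Thy1.1 and 73.4 and 89.3 CPM with GFP in tdTomato-positive cells (log2 fold change 0.97 ± 0.20, edgeR adjusted p = 0.0164), and 60.4 and 44.1 against 89.5 and 80.7 CPM in tdTomato-negative cells. Here too every GFP library was above every Thy1.1 library. The other 3 mevalonate genes were not called: the log2 fold change was 0.43 ± 0.18 for Mvd, which decarboxylates mevalonate diphosphate, -0.13 ± 0.40 for Mvk, mevalonate kinase, and -0.02 ± 0.17 for Acat2, which condenses acetyl-CoA. Mouse Acat2 has a near-identical copy, Acat3, with which it may share reads, so its value is uncertain.

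In the squalene and lanosterol steps, 2 of 3 rose, with a median log2 fold change of 0.84. Fdft1, squalene synthase, commits the pathway to sterols. It stood at 40.5 and 39.8 CPM in the Thy1.1 and at 76.4 and 66.1 CPM in the GFP libraries of tdTomato-positive cells (log2 fold change 0.89 ± 0.15, edgeR adjusted p = 0.00912), and at 47.0 and 37.9 against 54.9 and 51.4 CPM in tdTomato-negative cells. Its levels formed 3 separate steps: Thy1.1 lowest, tdTomato-negative GFP next and tdTomato-positive GFP highest. Its exons share 774 bases with those of Ctsb, a lysosomal protease gene that itself rose (562 and 592 to 1460 and 1162 CPM), and without strand the reads of the shared bases cannot be told apart. Sqle, squalene epoxidase, a slow step of the pathway, went from 47.3 and 39.7 CPM to 72.7 and 76.8 CPM (log2 fold change 0.84 ± 0.15, edgeR adjusted p = 0.0106). In tdTomato-negative cells it was 42.9 and 50.6 against 60.4 and 59.2 CPM, which gave the same 3 steps as Fdft1. Lss, which closes the ring to lanosterol, lay between 16.5 and 26.7 CPM in all libraries, with a log2 fold change of -0.06 ± 0.24.

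From lanosterol to cholesterol, 3 of 8 rose, with a median log2 fold change of 0.39. Cyp51 removes the first methyl group of lanosterol. In tdTomato-positive cells it went from 69.6 and 63.5 CPM to 136 and 114 CPM (log2 fold change 0.97 ± 0.15, edgeR adjusted p = 0.00645), and it was 78.1 and 71.5 against 120 and 93.9 CPM in tdTomato-negative cells. All GFP libraries lay above all Thy1.1 libraries, while the 2 GFP populations overlapped. Its exons share 166 bases with Akap9, which had a log2 fold change of -0.50 ± 0.14 and was not called. Ebp, the isomerase that moves the sterol ring's double bond (chrX:8185329-8193512, minus strand), was 67.6 and 68.4 CPM with Thy1.1 and 114 and 94.2 CPM with GFP in tdTomato-positive cells, a log2 fold change of 0.67 ± 0.13 (edgeR adjusted p = 0.0152). In tdTomato-negative cells it was 62.3 and 57.6 against 69.9 and 60.8 CPM, and the groups overlapped. Msmo1, the oxidase that removes the remaining pair of methyl groups, went from 66.0 and 60.1 CPM to 89.2 and 81.4 CPM (log2 fold change 0.50 ± 0.14, edgeR adjusted p = 0.0487). It was 62.7 and 54.4 against 80.9 and 67.7 CPM in tdTomato-negative cells. Msmo1 was the call nearest the threshold and missed it in 5 of 8 alternative analyses that used all or the compared libraries (adjusted p up to 0.0820).

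The other 5 genes of these steps were not called. Hsd17b7, a sterol ketone reductase, had 10.7 and 7.61 CPM with Thy1.1 against 24.3 and 14.7 CPM with GFP, without overlap (log2 fold change 1.15 ± 0.36, edgeR adjusted p = 0.0682). Sc5d, the desaturase of a late step, was the other way round: 113 and 102 CPM with Thy1.1 and 76.3 and 85.2 CPM with GFP (log2 fold change -0.35 ± 0.12, edgeR adjusted p = 0.0800). Both were past the threshold with DESeq2 (adjusted p = 0.0205 and 0.0283). Dhcr7, the reductase of the last step of 1 branch, and Nsdhl, which takes part in methyl removal, each had a log2 fold change of 0.29, with SE 0.14 and 0.17. Tm7sf2, a sterol reductase, had -0.37 ± 0.27.

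**Figure D2:**
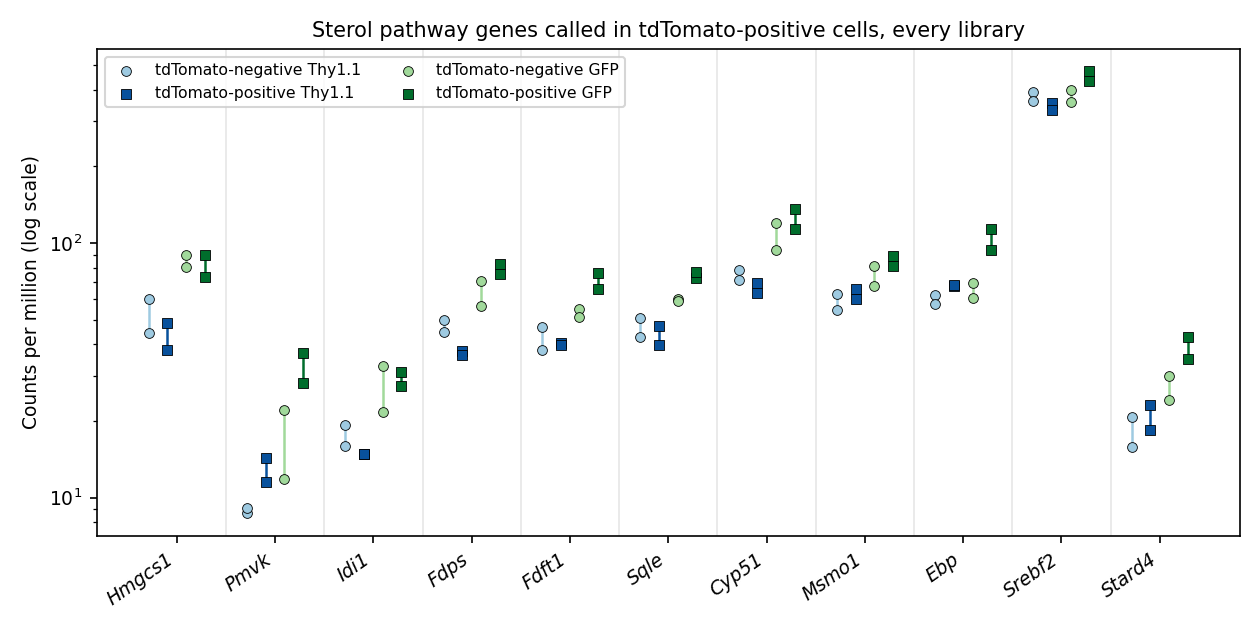
CPM of the 11 genes that rose in GFP against Thy1.1 among tdTomato-positive cells, on a log axis, with each library a point and a line joining the 2 libraries of a population. For every gene both tdTomato-positive GFP points lie above all 4 Thy1.1 points, and for 5 genes both tdTomato-negative GFP points lie between.

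Among the regulators and carriers, 2 of 5 rose. Srebf2 went from 353 and 334 CPM to 472 and 434 CPM (log2 fold change 0.46 ± 0.09, edgeR adjusted p = 0.0141). In tdTomato-negative cells it was 393 and 361 CPM with Thy1.1 and 397 and 357 CPM with GFP, so those groups overlapped. Stard4, a carrier that moves cholesterol between membranes, was 23.2 and 18.4 against 42.8 and 35.1 CPM in tdTomato-positive cells (log2 fold change 0.97 ± 0.24, edgeR adjusted p = 0.0320) and 15.8 and 20.7 against 24.2 and 30.1 CPM in tdTomato-negative cells. It formed the 3 steps without overlap.

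The other 3 regulators were not called. Srebf1 was 123 and 108 CPM with Thy1.1 and 158 and 130 CPM with GFP in tdTomato-positive cells, and 160 and 120 against 149 and 145 CPM in tdTomato-negative cells (log2 fold change 0.38 ± 0.16 in tdTomato-positive cells, edgeR adjusted p = 0.157). Its exons overlap those of Rai1, which fell by 0.55 on the log2 scale. For Scap the Thy1.1 libraries held 142 and 157 CPM without tdTomato and 112 and 113 CPM with it, and the GFP libraries 91.9 and 125 CPM without and 100 and 87.1 CPM with it. The escort protein's transcript was thus highest in the unmarked Thy1.1 population, above all 6 other libraries. Insig1, itself a target of SREBP factors, was 35.8 and 40.2, 27.9 and 30.6, 37.5 and 44.5, and 50.0 and 20.9 CPM in the same order. The 2 tdTomato-positive GFP libraries were the highest and the lowest of the 8 for Insig1, and its log2 fold change against Thy1.1 in those cells was 0.34 ± 0.35.

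**Figure D3:**
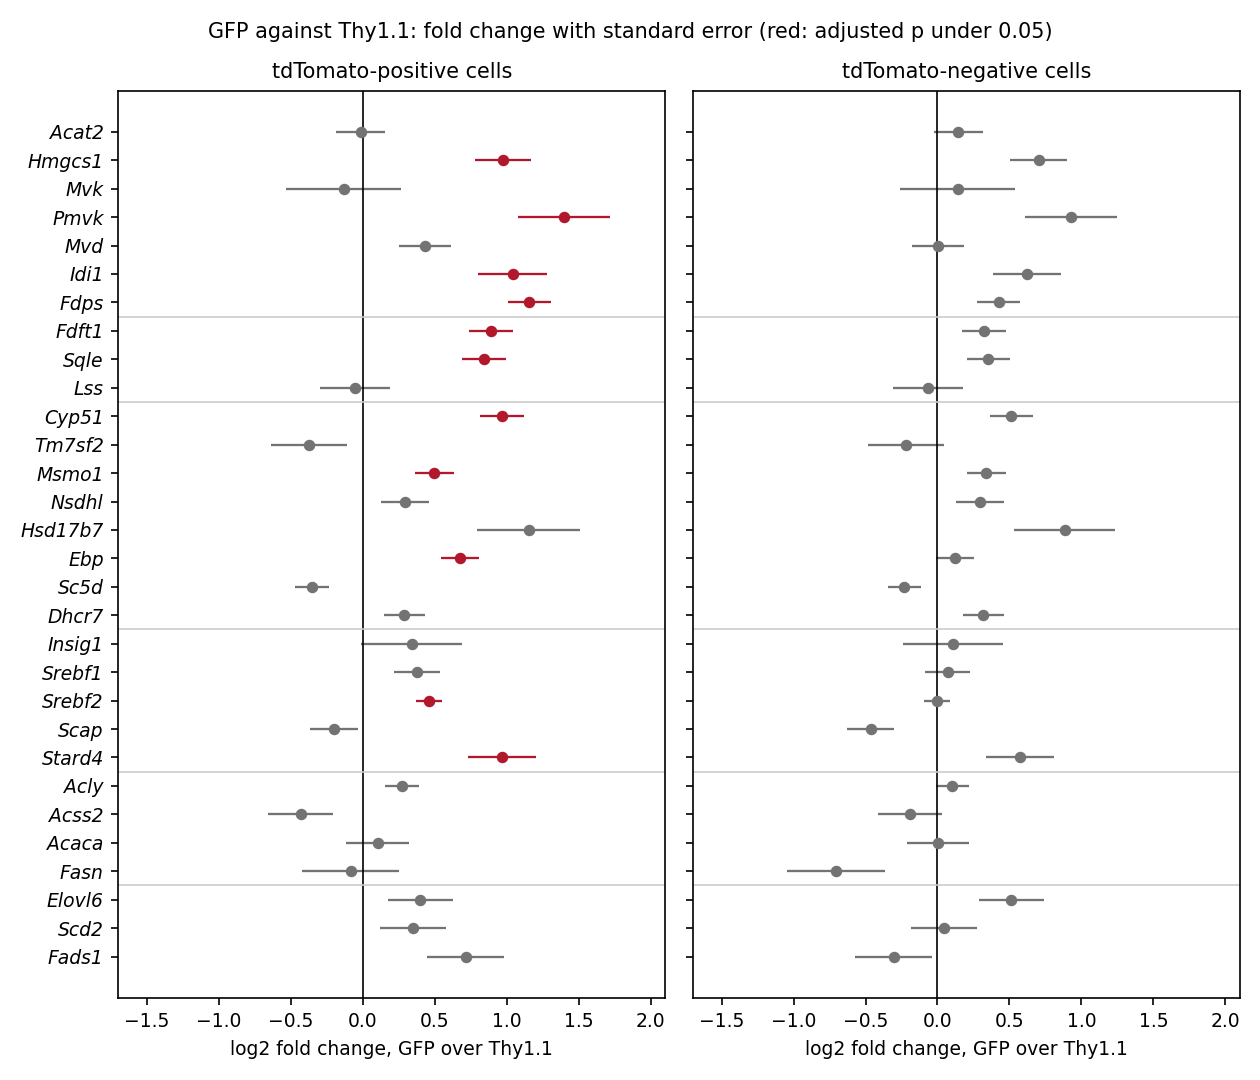
Log2 fold change with its SE for the 30 genes with a median of at least 5 CPM, GFP against Thy1.1 in tdTomato-positive and in tdTomato-negative cells, by pathway step, with calls in red. The 11 calls, all in tdTomato-positive cells, lie in the sterol steps.

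Of the 5 genes that supply acetyl-CoA or NADPH or build fatty acids, 0 were called, and the median log2 fold change of the 4 other than Me1 was 0.01. Acly lay between 262 and 377 CPM in the 8 libraries (log2 fold change 0.27 ± 0.12). Acaca, which makes malonyl-CoA, lay between 19.4 and 26.3 CPM (0.10 ± 0.22), and Fasn, the synthase, between 51.9 and 168 CPM (-0.08 ± 0.34). Fasn differed most between the 2 tdTomato-positive GFP libraries, at 51.9 and 111 CPM, on either side of the Thy1.1 libraries at 97.7 and 82.5 CPM. Acss2, which makes acetyl-CoA from acetate, was 91.4 and 104 CPM with Thy1.1 and 53.8 and 84.9 CPM with GFP (log2 fold change -0.43 ± 0.22, edgeR adjusted p = 0.243). Acss2 shares exon bases with Gss, Ggt7 and Acss2os, which had log2 fold changes of 0.65, -1.07 and -0.77 in this comparison and were not called.

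Elongation and desaturation genes gave 0 calls of 5. Fads1, which makes polyunsaturated chains, had a log2 fold change of 0.71 ± 0.27 (21.3 and 15.9 to 33.1 and 25.5 CPM, without overlap), Elovl6 0.40 ± 0.23 and Scd2, the desaturase of lymphoid cells, 0.35 ± 0.23. Scd1, the main desaturase of liver and fat, was near the detection limit, with 10 to 43 counts in 7 libraries and 176 counts in tdTomato-negative GFP library 3. Me1 had 1 to 3 counts in 6 libraries, 38 in tdTomato-negative Thy1.1 library 2 and 41 in tdTomato-negative GFP library 3. Fads2 had 0 counts in all 4 Thy1.1 libraries, 48 and 10 counts in tdTomato-negative GFP cells and 36 and 1 counts in tdTomato-positive GFP cells. The GFP library with the most Scd1, Me1 and Fads2 was the one with the most myeloid marker counts, and the part of those cells in the 3 genes, as of the B cell and erythroid markers in the reporter differences, was not tested.

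**Figure D4:**
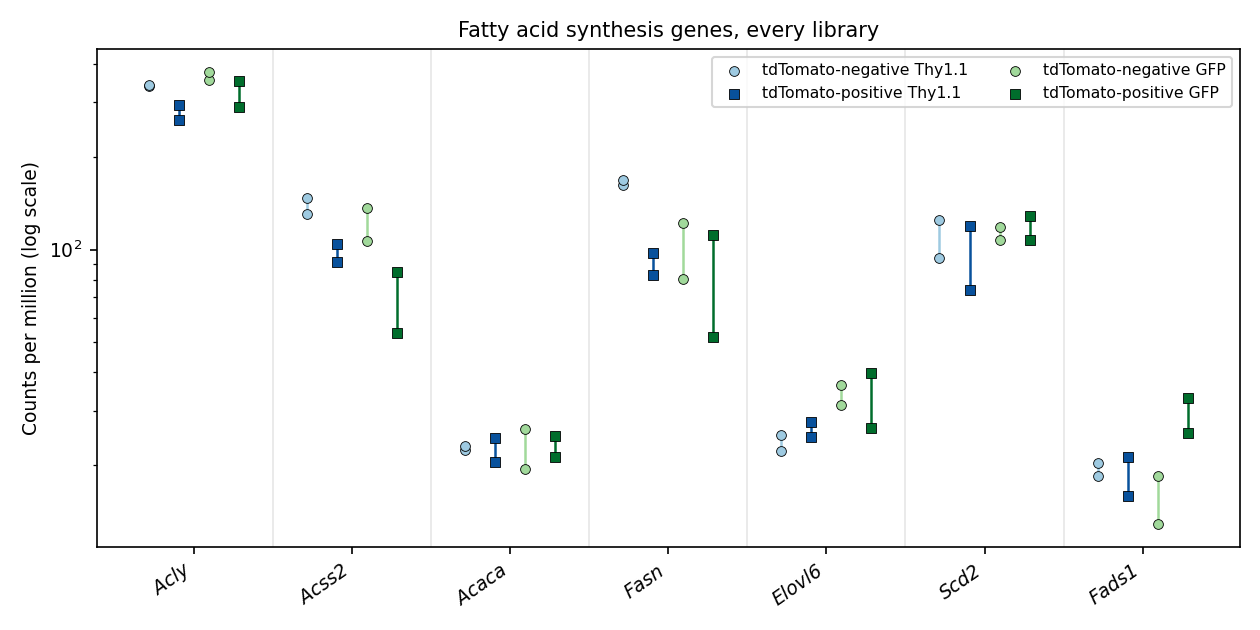
CPM of the 7 fatty acid genes with a median of at least 5 CPM, on a log axis, with each library a point and a line joining the 2 libraries of a population. The midpoints of Acss2 and Fasn are highest in tdTomato-negative Thy1.1 cells, and Acaca lies between 19.4 and 26.3 CPM throughout.

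The same reporter comparison among tdTomato-negative cells shares no library with the first, but both took their spread from 1 model of all 8 libraries. There 0 of 33 genes were called by edgeR, against 0.164% of all genes (0.0643% rose and 0.1% fell). DESeq2 called 2 of 33 higher, Hmgcs1 and Cyp51 (adjusted p = 0.0290 and 0.0494), where it called 2.32% of all genes higher. Of the 30 genes above 5 CPM, 9 lay above 0 at an unadjusted p under 0.05 (6.05% of all genes) and 1 below (5.83%). Their median log2 fold change was 0.13 against 0.00 for all genes, and 22 lay above 0, against 50.1% of all genes. The GFP libraries lay above the Thy1.1 libraries for 15 of the 30 (21.3% of all genes) and below for 4 (21.2%). The edgeR log2 fold change was 0.70 ± 0.20 for Hmgcs1 (adjusted p = 0.214), 0.93 ± 0.32 for Pmvk, 0.62 ± 0.24 for Idi1, 0.51 ± 0.15 for Cyp51 (adjusted p = 0.228) and 0.42 ± 0.15 for Fdps (adjusted p = 0.313). On the other side of 0, Scap had -0.46 ± 0.16 and Fasn -0.70 ± 0.34.

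Of the 11 genes called in tdTomato-positive cells, 10 were above 0 in tdTomato-negative cells too (50.1% of all genes), with a median of 0.42. For 9 of the 11 the GFP libraries lay above the Thy1.1 libraries there without overlap (21.3% of all genes). The same shares among all genes that rose in the first comparison are not given, so these counts do not show a trait particular to sterol genes. Both tdTomato-negative GFP libraries exceeded all 4 Thy1.1 libraries for 12 of the 30 genes above 5 CPM, against 11.1% of tested genes, and 8 of the 12 were among the 11. The libraries stepped without overlap from Thy1.1 to tdTomato-negative GFP to tdTomato-positive GFP in 5 of the 30, against 3.66% of tested genes. All 5 were among the 11, whose calls already require a part of that order. Srebf2 and Ebp were the 2 that overlapped between reporters in tdTomato-negative cells. The difference between the reporter effects was itself tested as an interaction of label and reporter, and 0 of 33 genes passed in edgeR and in DESeq2 (0.443% of all genes in edgeR, 0.0929% above 0 and 0.35% below). At an unadjusted p under 0.05 there were 6 of the 30 genes, Fdps, Srebf2, Ebp, Fads1, Fdft1 and Sqle (5.89% of all genes above 0 and 6.92% below), all with a higher GFP to Thy1.1 fold in tdTomato-positive cells. The interaction was 0.73 ± 0.21 for Fdps (edgeR adjusted p = 0.215), 0.46 ± 0.13 for Srebf2 (0.203) and 0.55 ± 0.19 for Ebp (0.291) on the log2 scale.

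Among GFP cells, tdTomato-positive against tdTomato-negative, 1 of 33 rose and 0 fell, against 12.6% of all genes called (6.24% rose and 6.4% fell). The gene was Ebp, at 69.9 and 60.8 against 114 and 94.2 CPM, a log2 fold change of 0.70 ± 0.13 (edgeR adjusted p = 0.0169). Of the 30 genes above 5 CPM, 8 lay above 0 at an unadjusted p under 0.05 (15.0% of all genes) and 2 below (14.0%). The tdTomato-positive libraries lay above for 10 of the 30 (27.0% of all genes) and below for 6 (26.5%). The median over the 30 was 0.03, as for all genes. Acss2, at 107 and 136 against 53.8 and 84.9 CPM, had a log2 fold change of -0.78 ± 0.22 (edgeR adjusted p = 0.0587) and passed with DESeq2 and in 5 other settings, 1 of them without tdTomato-positive GFP library 4. Acss2os, which shares exon bases with Acss2, was called lower here (log2 fold change -1.17 ± 0.30, edgeR adjusted p = 0.0425), while Gss and Ggt7 were not called. The part of shared reads in the Acss2 value was not tested. Fads1 had 0.93 ± 0.27 (0.0614), Pmvk 0.97 ± 0.32 (0.0861) and Srebf2 0.29 ± 0.09 (0.0696). The Ebp call was lost without tdTomato-negative GFP library 4 (adjusted p = 0.119), without tdTomato-positive GFP library 3 (0.0771) and when only the 2 GFP populations were fitted (0.0966).

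Among Thy1.1 cells, the same label comparison called 0 of 33 genes and 0.0% of all genes in edgeR, and DESeq2 called 0 of the 33 and 1.07% of all genes. Of the 30 genes above 5 CPM, 0 lay above 0 at an unadjusted p under 0.05 (3.5% of all genes) and 5 below (4.1%). The tdTomato-positive libraries lay below for 10 of the 30 (18.2% of all genes) and above for 3 (27.1%). Acly, Acss2, Acaca and Fasn were below 0, with a median of -0.43. Fasn was 162 and 168 CPM without the label and 97.7 and 82.5 CPM with it (log2 fold change -0.91 ± 0.34, edgeR adjusted p = 0.619), and Acss2 was 147 and 131 against 91.4 and 104 CPM (-0.54 ± 0.22, 0.634). The groups did not overlap for either gene.

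The pathway's other genes were read from lists of genes near it, beside 8.01% of all genes that rose and 6.82% that fell in this comparison. Of 12 tested genes of sterol synthesis, uptake and SREBP processing, 2 rose and 0 fell in GFP against Thy1.1 among tdTomato-positive cells, 1 of them Hsd17b12 (log2 fold change 0.73 ± 0.17, edgeR adjusted p = 0.0277), a reductase of fatty acid elongation. Of 9 genes of LXR signalling and efflux, the arm that removes cholesterol, 0 rose and 1 fell: Abca1, the exporter of cholesterol, went from 42.9 and 36.2 CPM to 10.1 and 8.06 CPM (log2 fold change -2.06 ± 0.21, edgeR adjusted p = 0.0018). Of 11 genes of cholesterol storage and export from organelles, Npc2, a lysosomal sterol carrier, rose (0.48 ± 0.12, 0.0308) and Gramd1b, which carries sterol from the plasma membrane, fell (-1.14 ± 0.12, 0.0018). Of 13 isoprenoid genes 0 rose and 1 fell, the farnesyltransferase subunit Fntb (-0.91 ± 0.16, 0.0105), whose exons overlap those of Churc1. Of 18 genes of fatty acid activation and elongation, Acsl5 (0.46 ± 0.10, 0.0216) and the mitochondrial malic enzyme Me2 (0.38 ± 0.10, 0.0447) rose, and Elovl7 fell to 0 counts in both GFP libraries. Of 17 fatty acid oxidation genes 0 were called.

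Between the GFP populations, tdTomato-positive against tdTomato-negative, 6.24% of all genes rose and 6.4% fell. These lists gave 0 calls in sterol synthesis, 1 lower of 13 in the isoprenoid list (Fntb), 1 higher and 2 lower of 9 in LXR and efflux (Rxra, and Abca1 and Mylip), 1 lower of 11 in storage (Gramd1b), 2 higher and 1 lower of 18 in activation (Acsl5 and Hacd3, and Elovl7) and 2 higher of 17 in oxidation (Etfb and Eci1). The other 3 tests gave 0 calls in each of these pathway lists. The 15 cell cycle genes summed to 386 to 447 CPM with Thy1.1, to 649 and 862 CPM in GFP cells without tdTomato and to 1328 and 1635 CPM in GFP cells with it. All 15 rose in the first comparison (median log2 fold change 2.48), against 8.01% of all genes. Between the GFP populations 11 of the 15 rose (median 1.27), against 6.24% of all genes. In the interaction 1 of the 15 was called, above 0, against 0.0929% of all genes. The part of dividing cells in the sterol gene differences was not tested.

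Of the 11 calls, 10 were lost when at least 1 of the 8 libraries was left out, and Fdps was not. A population left with 1 library was taken to vary like the others. Without either tdTomato-positive Thy1.1 library 1 of the 33 genes rose, when 3.25% and 3.54% of all genes were called in place of 14.8%. Without tdTomato-positive GFP library 3 there were 5 (9.42% of all genes called), and without either tdTomato-negative Thy1.1 library 7 (9.86% and 9.85%). The median log2 fold change of the 11 stayed between 0.76 and 0.98 across all alternatives, with all 11 above 0. The 11 were picked as higher in these same libraries, so this range is no independent test of their direction. Library 3 was the higher of the pair for 23 of the 30 genes in tdTomato-positive GFP cells (52.2% of all genes) and for 20 in tdTomato-negative GFP cells (53.6%).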

How the data were processed

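PolyA RNA of sorted cells was amplified with SMART-Seq v4 in 12 cycles, made into KAPA libraries with 8 cycles and read as 50-nt paired ends, per the labels' protocols; the kit does not mark strand. The authors deposited raw, unnormalized counts per gene, per the file headers. DESeq is named in the submitters' processing notes. The aligner, counter and genome build were not given in the sources used here. Of 24116 entries, 8 without a gene name (0.0215% to 0.0264% of the counts) were left out. Thy1.1 columns match the sample titles; GFP columns are numbered 3 and 4 where the titles say 1 and 2, so they were matched to their population only.

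Tests used R 4.3.3 with edgeR 4.0.16 and limma 3.58.1: expression filter with a minimum count of 10, TMM scaling (factors 0.978 to 1.02), and 1 robust quasi-likelihood model of all 8 libraries with a mean per population and 4 residual degrees of freedom. The common biological coefficient of variation was 0.399. P-values were Benjamini-Hochberg adjusted over all tested genes. Alternatives were RLE factors, library totals alone, no filter, a minimum count of 50, DESeq2 1.42.0, no robust estimation, a replicate block, only the compared populations, and each library left out. On data simulated for the first comparison over 13719 genes, 34% of genes raised 2-fold and 84% of those raised 4-fold were recovered, with 7 false calls. Of genes lowered to 0.5 and 0.25 of their level, 42% and 72% were recovered. The share of genes changed there was smaller than the share called in the data. These recoveries therefore do not give the sensitivity of the real comparison.

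Named genes were those called in any test and 4 regulators (Srebf1, Srebf2, Scap, Insig1) with all libraries, and up to 3 called genes per other list. The genes and lists were chosen with earlier results of these data known. Results of some genes of the other lists are not reported here, though counts include them. The genes called between the GFP populations in the other lists, and the genes named without a call, were chosen after their values were seen. Exon lengths, overlaps and coordinates came from GENCODE M21 (GRCm38), in which all 33 genes were found. Motifs were searched on both strands.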

Additional observations from a re-analysis of the deposited data

How the results depend on the processing

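In GFP against Thy1.1 among tdTomato-positive cells 11 genes rose, beside 8.01% of all genes. With the compared libraries kept, the count was 10 with RLE factors (7.48% of all genes), library totals (6.33%) or no filter (5.66%). It was also 10 with no robust estimation (7.68%) or only the populations compared (6.69%). The count was 11 with a minimum count of 50 (9.29%) and 12 with DESeq2 (11.2%). How far the calls hung on single libraries is given above. The 0 genes that fell (6.82% of all genes) became 1 with DESeq2 (Sc5d, where 11.4% of all genes fell). Without tdTomato-positive GFP library 4, Acss2 had a log2 fold change of -0.82. Among tdTomato-negative cells DESeq2 called 2 higher in place of 0 (2.32% of all genes). Between GFP populations the 1 gene that rose became 4 with DESeq2 (10.1% of all genes) and 0 with only the populations compared (0.815%), and 0 to 2 with a library left out. The 0 that fell became 1 (Acss2) with library totals (6.96% of all genes fell), no filter (5.24%), a minimum count of 50 (8.9%) and DESeq2 (11.3%). Between these populations Acss2 had a log2 fold change of -1.16 without tdTomato-positive GFP library 4, and Insig1 had -0.98 without library 3. None of the calls reported changed sign, though they were picked from these same libraries. Values called neither in the reported analysis nor in the alternative changed sign in 126 cases. Insig1 in GFP against Thy1.1 of tdTomato-positive cells went from 0.82, called, without library 4 to -0.47 without library 3, and between the GFP populations from 0.31 to -0.98, called, in the same settings. Of the 11 calls, 10 held in all 8 settings that kept the compared libraries, and Fdps alone held in all 16.

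Deviations of libraries with same-parity numbers correlated at 0.0325 to 0.0560 over the pairs of populations. Such a correlation cannot settle whether populations shared animals or sorts. With the replicate block by column number, 12 genes rose in the first comparison (8.29% of all genes). Between the GFP populations 2 rose (6.48% of all genes) and 1 fell (6.79%) with that block.

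With 2 libraries a population, the absence of a call does not show equal levels, and Scd1, Me1 and Fads2 were too low to compare.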
